A study of Mus musculus with 8 samples.

Results

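Left ventricle of male C57BL/6 mice was compared 1 day after myocardial infarction (MI) with left ventricle 1 day after sham surgery, across all genes of the count table. These are 4 of the 8 libraries of the study, 2 from infarcted and 2 from sham-operated hearts, and the other 4 come from the same surgeries at 3 days. The mice were 8 to 12 weeks old, carried no genetic modification named in the labels, and had the left anterior descending coronary artery ligated or a sham operation. Total RNA of the free wall was freed of ribosomal RNA and sequenced in pairs. By the study's design each group is 2 mice. A and B stand for the order of the count columns, which give no replicate number. The design text calls the MI samples ischaemic tissue, and does not say how much of each was infarcted.

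Closing a coronary artery cuts the muscle it feeds off from oxygen. Cardiomyocytes, which live mainly on fatty acids burnt in mitochondria, die within hours where flow is lost, and their contents are danger signals for the cells around them. Endothelial cells then put adhesion molecules on the vessel wall, neutrophils enter before monocytes do, and surviving muscle cells around the damage switch on stress and growth genes. The first day is therefore known as the inflammatory phase, ahead of the scar.

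The sham libraries held 20676514 and 20120257 gene reads and the MI libraries 12662237 and 7382490, so 3 reads equalled 0.172 to 0.369 CPM (the usual depth-scaled read count, here on TMM library sizes). Mitochondrially encoded transcripts took 15.0% and 13.9% of transcript-table reads in sham libraries A and B and 28.7% and 43.3% in MI libraries A and B. Of 1495 chemosensory receptor genes, which belong to sensory tissue, 5.22% and 50.6% had reads in sham libraries A and B and 23.5% and 92.0% in MI libraries A and B. Their 95th percentile in MI library B was 1.48 CPM, and 112 of the genes that rose had no more than that in this library. Of 21 receptor genes that were tested, 7 rose and 1 fell. A mean under 5 CPM was found for 959 of all genes that rose. The ventricular myosin light chain Myl2 stood at 7845 and 7388 CPM in the sham and 4378 and 3856 CPM in the MI libraries, so the labelled chamber was present in all 4. Atrial markers differed between the MI libraries: Myl7 was at 0.162 CPM in A and 32.6 CPM in B, against 30.02 and 24.5 CPM in sham hearts, and Myl4 and Sln followed the same order. The part of these library features in the results was not tested. In bulk tissue, fewer cells of a type and less RNA per cell cannot be told apart, and whether the groups were prepared apart is not given, so such a batch cannot be told apart from MI.

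Of 15508 genes tested, 2993 rose (19.3%) and 3058 fell (19.7%) by edgeR's quasi-likelihood test at an adjusted p of 0.05. The genes that rose took 7.94% and 8.26% of gene reads in sham libraries A and B and 25.2% and 25.5% in MI libraries A and B. The genes that fell went from 52.9% and 52.7% of reads to 31.1% and 28.2%. Both MI libraries lay beyond both sham libraries for 10435 genes (67.3%). Leaving out 1 library moved the number that rose to 1017 (without sham A), 1111 (without sham B), 5316 (without MI A) or 2880 (without MI B), and the number that fell to 1671, 1829, 4072 or 3028. In all 4 of those fits, 858 of the genes that rose and 1450 of those that fell passed. When counts were scaled to library size alone, without TMM, 4278 rose and 2025 fell, so that 67.9% of calls were rises against 49.5%, and the median over all genes moved by 0.28 on the log2 scale. Changes below are relative to the TMM scale. List counts of the main fit below stand against 19.3% risen and 19.7% fallen over all genes tested. Those shares do not apply to the fits that left out 1 library. List counts without sham A, sham B, MI A or MI B stand against the counts just given for the same fit. Those fits tested 17982, 17786, 17840 or 15574 genes. Most genes named below were picked by a rule that required a call and groups that do not overlap. For those genes the lack of overlap was set by the choice.

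Among the 8 genes with the largest gain in mean CPM were Ankrd1, Xirp2 and Thbs1. Ankrd1 (chr19:36111965-36119844 in GRCm38.p6), a titin-binding protein of the stretched cardiomyocyte, was at 1083 and 1422 CPM in sham libraries A and B and at 7576 and 9002 CPM in MI libraries A and B. On the log2 scale it changed by 2.73 (SE 0.22, adjusted p = 9.83e-05), and the groups were far apart. Xirp2, an actin-binding protein of the Z-disc region, went from 1293 and 1978 to 5969 and 10089 CPM, a log2 change of 2.30 (SE 0.30, adjusted p = 0.000559). Thbs1, a matricellular protein that activates TGF-beta, had 147 and 57.0 CPM (sham) and 2647 and 1354 CPM (MI), a log2 change of 4.30 (SE 0.48, adjusted p = 0.000291). Among the 8 largest losses in mean CPM were Myh6, the main myosin heavy chain, Actc1, cardiac actin, and Mb, myoglobin, with the calcium regulators. Atp2a2, the calcium pump of the sarcoplasmic reticulum, fell from 21789 and 21174 to 9365 and 5246 CPM, a log2 change of −1.56 (SE 0.26, adjusted p = 0.00170). Its inhibitor Pln fell from 7818 and 8637 to 2396 and 3598 CPM (log2 change −1.46, SE 0.22, adjusted p = 0.00109). For Xirp2, Thbs1, Atp2a2 and Pln too, both MI libraries lay beyond both sham libraries.

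Inhibitors and feedback genes of the NF-kB pathway were among those that rose. NF-kB is held in the cytoplasm by IkB inhibitors and, once free, induces those inhibitors itself. Of 25 tested NF-kB subunits, inhibitors and feedback genes, 13 rose and 1 fell, with a median log2 fold change of 0.86, and 0.12 over all genes tested. Nfkbiz, a nuclear IkB protein that works as a co-activator, was at 10.3 and 14.1 CPM in sham libraries A and B and 135 and 57.2 CPM in MI libraries A and B (log2 change 2.98, SE 0.47, adjusted p = 0.00137). Tnfaip3, which encodes the ubiquitin-editing inhibitor A20, was at 8.58 and 5.69 CPM (sham) and 64.3 and 34.9 CPM (MI) (log2 change 2.81, SE 0.47, adjusted p = 0.00186). For both genes the groups did not overlap and MI library A was the higher of the pair. The subunits Nfkb1, Rela and Nfkb2 themselves stood at 0.34, 0.35 and 0.39 on the log2 scale and did not pass the test. Leaving out sham A, sham B, MI A or MI B gave 6, 7, 9 or 20 risen and 0, 0, 1 or 1 fallen genes, with medians of 0.80, 0.78, 0.26 or 1.00. The median over all genes tested in the same fits was 0.27, 0.25, 0.25 or −0.01, so without MI A the list's median and that of all genes were nearly equal.

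STAT3 is activated by cytokines of the interleukin-6 family through the shared receptor gp130, and SOCS3 blocks that receptor again. In the STAT3 list 12 of 23 tested genes rose and 2 fell (median 0.75). The ligand gene Lif was at 0.406 and 0.230 CPM in sham libraries A and B and 48.4 and 13.04 CPM in MI libraries A and B, a log2 change of 6.61 (SE 1.01, adjusted p = 0.00108). Its receptor gene Lifr moved the other way, from 248 and 239.8 to 75.0 and 88.8 CPM (log2 change −1.58, SE 0.16, adjusted p = 0.000232), as did the interleukin-11 receptor Il11ra1 (log2 change −1.38, SE 0.18, adjusted p = 0.000582). Socs3 was at 33.8 and 24.5 CPM in sham hearts and 325 and 86.4 CPM in MI hearts, a log2 change of 2.83 (SE 0.51, adjusted p = 0.00260), while Stat3 (0.46) and the gp130 gene Il6st (0.01) did not pass. The groups did not overlap for Lif, Lifr, Il11ra1 and Socs3, and Socs3 was higher in MI library A than in B. With sham A, sham B, MI A or MI B left out, the list had 7, 7, 9 or 14 risen and 2, 2, 6 or 2 fallen genes, with medians of 0.95, 0.66, 0.51 or 1.37.

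Acute phase proteins are secreted defence proteins that injured tissue induces under these cytokines. Of 14 tested, 6 rose and 1 fell. Lcn2, an iron-withholding lipocalin that neutrophils and muscle also make, was at 20.9 and 27.1 CPM in sham hearts and 418 and 280.0 CPM in MI hearts (log2 change 3.86, SE 0.60, adjusted p = 0.00127). Ptx3, a pattern-recognition protein, was at 3.77 and 3.74 CPM (sham) and 77.5 and 18.6 CPM (MI) (log2 change 3.71, SE 0.58, adjusted p = 0.00132), with MI library A well above MI library B. The complement gene C3 fell from 743 and 892 to 224 and 183 CPM (log2 change −2.01, SE 0.38, adjusted p = 0.00314); this call was lost without both B libraries (adjusted p = 0.0778). Without sham A, sham B, MI A or MI B the counts were 4, 5, 6 or 7 risen and 1, 1, 2 or 1 fallen genes.

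Receptor tyrosine kinases signal through ERK, which induces dual-specificity phosphatases, Sprouty and Spred proteins that damp the same pathway. Of 16 tested feedback genes 11 rose and 0 fell, with a median of 1.57. Spred3 was at 0.406 and 0.287 CPM in sham libraries A and B and 15.2 and 9.35 CPM in MI libraries A and B, a log2 change of 5.15 (SE 0.51, adjusted p = 0.000176). Dusp5, a nuclear ERK phosphatase, was at 4.87 and 3.68 CPM (sham) and 52.7 and 20.1 CPM (MI) (log2 change 3.12, SE 0.54, adjusted p = 0.00208). The groups were apart in both genes, with the higher value in MI library A. When sham A, sham B, MI A or MI B was dropped, there were 5, 4, 7 or 10 risen and 0, 0, 2 or 0 fallen genes, with medians of 1.56, 1.47, 0.97 or 1.92.

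Of 41 tested growth factor and receptor genes, 20 rose and 6 fell (median 0.77). The epidermal growth factor relative Ereg was at 0.580 and 0.402 CPM in sham hearts and 44.4 and 30.9 CPM in MI hearts, a log2 change of 6.25 (SE 0.59, adjusted p = 0.000157). Pgf, a ligand of the VEGF receptor FLT1, was at 10.4 and 9.72 CPM (sham) and 215 and 128 CPM (MI) (log2 change 4.10, SE 0.36, adjusted p = 0.000129). Inhba, which encodes the subunit of activin A, was at 1.33 and 0.460 CPM (sham) and 22.1 and 21.2 CPM (MI) (log2 change 4.59, SE 0.50, adjusted p = 0.000258). No value of an MI library came near a sham value in these 3 genes. Vegfa, the main angiogenic ligand induced by hypoxia, stood at −0.20 and did not pass (adjusted p = 0.719). Fgf13, an intracellular regulator of sodium channels, fell from 74.5 and 76.2 to 33.7 and 30.1 CPM (log2 change −1.24, SE 0.19, adjusted p = 0.00119). Fits that lacked sham A, sham B, MI A or MI B gave 11, 12, 15 or 19 risen and 3, 3, 7 or 6 fallen genes, with medians of 0.71, 0.70, 0.46 or 0.93.

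**Figure D1:**
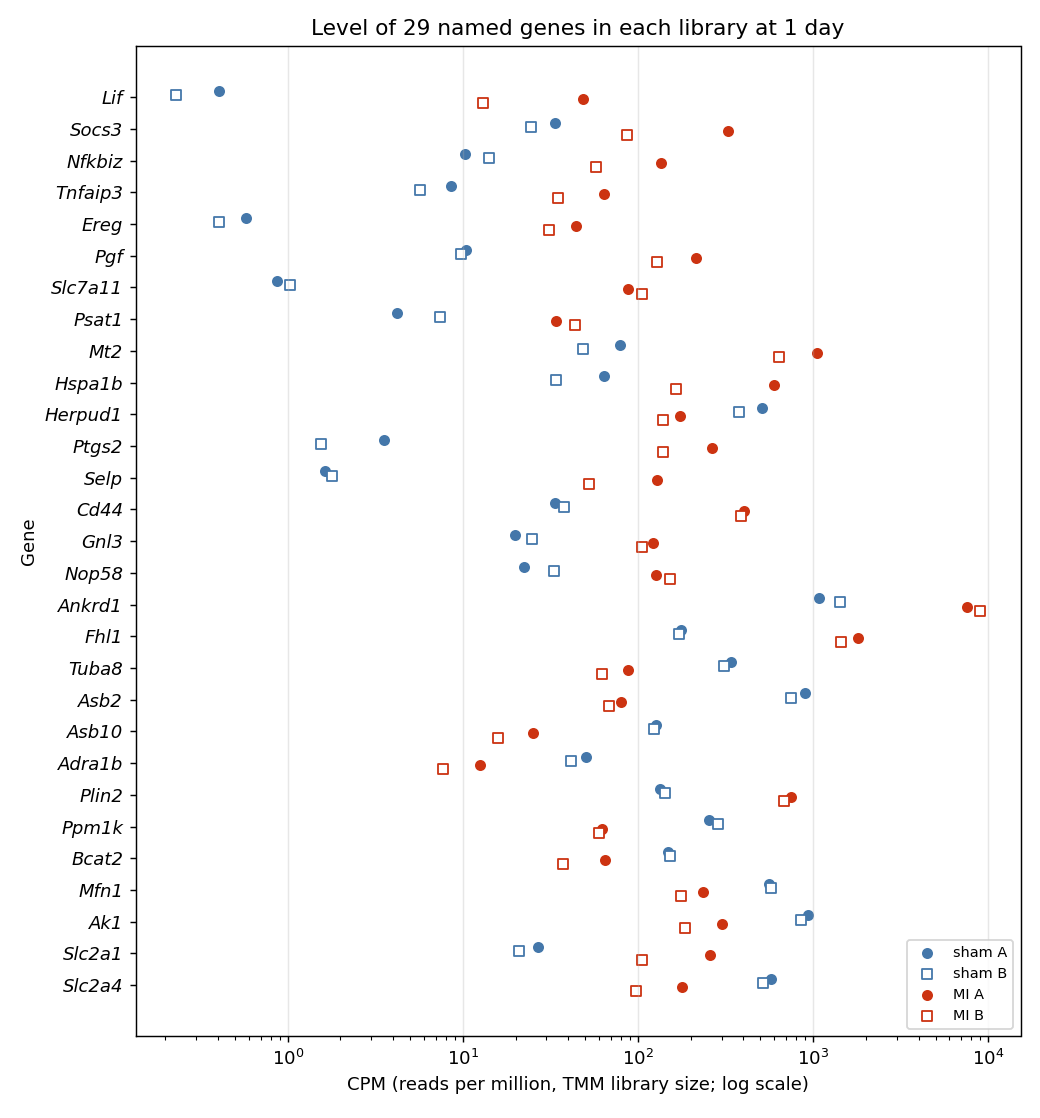
Level of 29 genes in each library: the horizontal axis is CPM on a log scale, filled circles are the A and open squares the B libraries, blue for sham and red for MI. In each row the red and blue symbols stand apart, as for Ankrd1 (1083 and 1422 CPM in sham hearts, 7576 and 9002 CPM in MI hearts). The rule for genes named from the lists or for the largest changes required this.

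The integrated stress response slows translation and, through ATF4, induces amino acid synthesis and import. Of its 24 tested genes 15 rose and 2 fell (median 1.19). Slc7a11 (chr3:50364936-50499087), the cystine importer that feeds glutathione synthesis, was at 0.869 and 1.03 CPM in sham libraries A and B and 87.3 and 105 CPM in MI libraries A and B. Its log2 change of 6.65 (SE 0.29, adjusted p = 1.25e-05) was among the 8 largest rises over all genes that averaged 20 CPM or more, and the MI libraries were close to each other. Psat1, an enzyme of serine synthesis, was at 4.23 and 7.42 CPM (sham) and 33.8 and 43.5 CPM (MI) (log2 change 2.72, SE 0.32, adjusted p = 0.000379), and Sesn2, a brake on mTORC1, at 3.01 and 2.01 CPM (sham) and 24.4 and 10.8 CPM (MI) (log2 change 2.85, SE 0.42, adjusted p = 0.00102). In fits without sham A, sham B, MI A or MI B there were 10, 9, 11 or 13 risen and 1, 3, 5 or 1 fallen genes.

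The 250 bases before a Slc7a11 start (chr3:50443614-50443863, minus strand, RefSeq, GRCm38.p6) are shown because they hold TGATGCAA, the composite site of CHOP or C/EBP with ATF proteins, 2 times, with 1 copy on each strand, in capitals:
Slc7a11 promoter: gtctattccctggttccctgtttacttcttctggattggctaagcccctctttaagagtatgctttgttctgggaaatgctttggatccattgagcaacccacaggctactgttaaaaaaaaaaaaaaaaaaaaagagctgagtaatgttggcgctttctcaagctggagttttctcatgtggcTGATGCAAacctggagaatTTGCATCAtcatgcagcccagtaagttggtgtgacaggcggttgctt
These letters occurred in 0.895% of 32851 RefSeq promoters of 300 bases and in 0.799% of the tested genes with a promoter. They were in 5 of the 22 tested genes of the list that have a promoter there. Among those 22 genes they were in 3 of the 14 that rose and in 1 of the 2 that fell. A match is a description of the sequence only.

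Few chaperones of the endoplasmic reticulum, which its own unfolded protein response induces, passed the test: 2 of 18 rose and 2 fell. Their median was −0.07, and 0.23 when scaled to library size alone. Hspa5, the BiP chaperone, was at 1657 and 1507 CPM in sham hearts and 1619 and 1885 CPM in MI hearts, and the groups overlapped (log2 change 0.15, SE 0.19, adjusted p = 0.557). Herpud1, a factor of the degradation of misfolded proteins, fell from 513 and 378 to 173 and 139.7 CPM (log2 change −1.51, SE 0.20, adjusted p = 0.000624). Xbp1 rose (log2 change 1.05, SE 0.20, adjusted p = 0.00331), but not without sham library B (adjusted p = 0.0734). The fits without sham A, sham B, MI A or MI B had 2, 0, 2 or 2 risen and 1, 1, 5 or 2 fallen genes, with medians of −0.11, −0.28, −0.02 or −0.17.

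Heat shock genes split by member. The stress-inducible Hspa1b was at 64.2 and 34.0 CPM in sham libraries A and B and 599 and 164 CPM in MI libraries A and B, a log2 change of 2.96 (SE 0.58, adjusted p = 0.00393), with MI library A the higher. Hspa1b and Hspa1a are near-identical copies, so their reads may be divided between them, and Hspa1b missed the threshold without sham B (adjusted p = 0.0623). Hspa4l, a constitutive HSP110 relative, fell from 144 and 151 to 59.2 and 44.5 CPM (log2 change −1.5027, SE 0.19, adjusted p = 0.000501), and Dnajb5, a co-chaperone of muscle, from 91.6 and 85.0 to 48.5 and 27.7 CPM (log2 change −1.20, SE 0.24, adjusted p = 0.00466). In all 5 of 27 rose and 11 fell, with a median of −0.18 that became 0.10 when counts were scaled to library size alone (7 rose and 7 fell). Dropping sham A, sham B, MI A or MI B left 3, 2, 3 or 7 risen and 6, 6, 15 or 9 fallen genes, with medians of −0.16, −0.31, −0.56 or 0.03.

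Antioxidant genes moved in both directions. NRF2 induces genes of glutathione and thioredoxin reduction, and metallothioneins bind zinc and scavenge radicals. In this list 10 of 28 rose and 7 fell. Mt2 was at 78.6 and 48.5 CPM in sham hearts and 1049 and 638 CPM in MI hearts, a log2 change of 3.73 (SE 0.33, adjusted p = 0.000134). Gsr, glutathione reductase, was at 40.6 and 34.5 CPM (sham) and 195 and 121 CPM (MI) (log2 change 2.08, SE 0.24, adjusted p = 0.000365); in both genes every MI value exceeded every sham value. The superoxide dismutases Sod1 and Sod2 fell, by log2 fold changes of −0.80 (SE 0.25, adjusted p = 0.0291) and −0.77 (SE 0.18, adjusted p = 0.00916), but no member fell without sham library A. Leaving out sham A, sham B, MI A or MI B gave 6, 5, 7 or 12 risen and 0, 2, 9 or 3 fallen genes. Scaled to library size alone, 12 rose and 2 fell.

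The metal response element, the site of the zinc sensor MTF1, was searched only in its form TGCGCNC, and other forms were not marked or counted. The Mt2 promoter (chr8:94172368-94172617, plus strand, RefSeq, GRCm38.p6) is shown with the letters of that form in capitals:
Mt2 promoter: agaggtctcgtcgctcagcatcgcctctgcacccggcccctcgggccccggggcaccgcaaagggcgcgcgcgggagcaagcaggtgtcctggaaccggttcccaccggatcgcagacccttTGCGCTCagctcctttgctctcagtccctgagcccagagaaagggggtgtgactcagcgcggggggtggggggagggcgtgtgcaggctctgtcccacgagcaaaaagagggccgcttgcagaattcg
So short a motif occurred in 15.4% of all promoters. Counted by gene, it was in 28.3% of the tested genes with a promoter, in 25.3% of those that rose and in 31.7% of those that fell. Within the list it was present in 5 of the 8 risen genes of the list with a promoter in the table and in 0 of the 6 that fell. The antioxidant response letters TGA and GCA 4 bases apart were present in 3 and 1 of them, in 13% of all promoters, in 13.1% of the tested genes, and in 14.6% of all risen and 12.1% of all fallen genes. With so few list members these shares are a description only.

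Prostaglandins and leukotrienes are lipid signals made from arachidonic acid. Ptgs2, the inducible cyclooxygenase, was at 3.54 and 1.55 CPM in sham libraries A and B and 263 and 138 CPM in MI libraries A and B, a log2 change of 6.30 (SE 1.08, adjusted p = 0.00221); it missed the threshold without both B libraries (adjusted p = 0.0794). Pla2g4a, the phospholipase that frees arachidonic acid, was at 8.17 and 8.05 CPM (sham) and 30.2 and 30.8 CPM (MI) (log2 change 1.91, SE 0.32, adjusted p = 0.00170). Ptgds, the lipocalin-type prostaglandin D synthase of resting heart, fell from 826 and 573 to 233 and 220.2 CPM (log2 change −1.63, SE 0.22, adjusted p = 0.000722). Over 23 tested prostaglandin and leukotriene genes 7 rose and 4 fell. With sham A, sham B, MI A or MI B left out, the list had 4, 5, 7 or 9 risen and 3, 3, 6 or 5 fallen genes. For adenosine, which protects ischaemic muscle, the ectoenzyme Entpd1 that begins its extracellular formation rose from 51.1 and 49.8 to 159 and 131 CPM (log2 change 1.52, SE 0.20, adjusted p = 0.000661), and the uptake carrier Slc29a1 fell from 116 and 99.5 to 41.8 and 40.1 CPM (log2 change −1.39, SE 0.17, adjusted p = 0.000481). In that list 7 of 19 rose and 3 fell. Without sham A, sham B, MI A or MI B the counts were 4, 3, 4 or 9 risen and 1, 1, 5 or 3 fallen genes.

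Polyamine and arginine genes rose in 8 of 15 tested cases and fell in 1 (median 1.06). Arg2, the mitochondrial arginase, was at 0.464 and 0.575 CPM in sham hearts and 15.4 and 14.6 CPM in MI hearts, a log2 change of 4.84 (SE 0.41, adjusted p = 0.000117) with nearly equal MI libraries. Slc7a2, an arginine importer, was at 6.09 and 7.07 CPM (sham) and 77.8 and 46.5 CPM (MI) (log2 change 3.25, SE 0.30, adjusted p = 0.000155). The inducible nitric oxide synthase Nos2, which uses the same substrate, was at 4.17 and 3.68 CPM (sham) and 40.3 and 22.3 CPM (MI) (log2 change 3.01, SE 0.60, adjusted p = 0.00417); it missed the threshold without sham A (adjusted p = 0.0554) or B (0.0604). When sham A, sham B, MI A or MI B was dropped, there were 5, 5, 7 or 9 risen and 0, 0, 4 or 0 fallen genes, with medians of 1.27, 0.89, 0.56 or 1.61.

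Adhesion molecules of leukocyte entry had the highest median of the 25 gene lists, 2.05 on the log2 scale. Selectins on activated endothelium catch rolling leukocytes, and integrins on the leukocyte then hold to ICAM and VCAM proteins. Of 17 tested, 12 rose and 1 fell. Selp, P-selectin, was at 1.62 and 1.78 CPM in sham libraries A and B and 129 and 52.4 CPM in MI libraries A and B, a log2 change of 5.74 (SE 0.47, adjusted p = 0.000110). Sele, E-selectin, was at 3.07 and 1.49 CPM (sham) and 65.7 and 25.5 CPM (MI) (log2 change 4.34, SE 0.53, adjusted p = 0.000441), and both selectins were higher in MI library A. Cd44, the hyaluronan receptor, was at 33.4 and 37.8 CPM (sham) and 405 and 387 CPM (MI) (log2 change 3.48, SE 0.21, adjusted p = 3.49e-05) with little spread between the MI libraries. Jam2, a junction protein of resting endothelium, fell (log2 change −0.84, SE 0.19, adjusted p = 0.00735), though not without sham library B (adjusted p = 0.0513) or when scaled to library size alone (0.0758). Fits that lacked sham A, sham B, MI A or MI B gave 9, 10, 10 or 11 risen and 1, 0, 1 or 1 fallen genes. Neutrophil markers, with a summed level of 208 and 149 CPM in the sham and 2136 and 1169 CPM in the MI libraries, moved with this list, and their part in it was not tested.

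MYC drives nucleolar proteins that process ribosomal RNA and assemble the subunits. Of 30 tested genes of ribosome biogenesis 22 rose and 0 fell, with a median of 1.15. Myc itself was at 2.202 and 3.74 CPM in sham hearts and 61.4 and 24.7 CPM in MI hearts (log2 change 3.88, SE 0.52, adjusted p = 0.000677). Gnl3, nucleostemin, was at 19.8 and 24.7 CPM (sham) and 121 and 106 CPM (MI) (log2 change 2.35, SE 0.19, adjusted p = 9.83e-05), and Nop58, a core protein of box C/D small nucleolar particles, at 22.3 and 33.3 CPM (sham) and 126 and 153 CPM (MI) (log2 change 2.32, SE 0.24, adjusted p = 0.000218). MI library B was the higher for Nop58 and MI library A for Myc and Gnl3, with no overlap between groups. The polymerase subunits Polr1a, Polr1b and Polr1c stood at −0.14, 0.20 and −0.34 and did not pass. In fits without sham A, sham B, MI A or MI B there were 15, 14, 18 or 24 risen and 0, 0, 2 or 0 fallen genes.

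Cytoskeletal genes rose in 15 of 32 tested cases and fell in 2 (median 0.85). Flnc, filamin C of the Z-disc, was at 1115 and 754 CPM in sham libraries A and B and 3406 and 2507 CPM in MI libraries A and B (log2 change 1.66, SE 0.23, adjusted p = 0.000753). Tubulin isotypes went opposite ways: Tubb6 rose from 58.7 and 55.5 to 317 and 221 CPM (log2 change 2.24, SE 0.20, adjusted p = 0.000137), and the muscle isotype Tuba8 fell from 342 and 308 to 87.9 and 62.2 CPM (log2 change −2.11, SE 0.20, adjusted p = 0.000168). Tuba4a fell too (log2 change −1.81, SE 0.24, adjusted p = 0.000568), and the groups were apart for all of these. The fits without sham A, sham B, MI A or MI B had 11, 10, 15 or 18 risen and 2, 2, 6 or 2 fallen genes. At the intercalated disc, where cardiomyocytes join, 3 of 18 rose (16.7%, against 19.3% over all genes tested) and 5 fell (27.8%, against 19.7%). Dsp, desmoplakin, fell from 2125 and 2019 to 1119.6 and 815 CPM (log2 change −1.10, SE 0.19, adjusted p = 0.00210), and Ank2, an adaptor of ion transporters, from 217 and 234 to 78.1 and 88.2 CPM (log2 change −1.44, SE 0.17, adjusted p = 0.000359). Gja1, connexin 43, was at 477 and 548 CPM in sham hearts and 385 and 398 CPM in MI hearts and did not pass (log2 change −0.39, SE 0.17, adjusted p = 0.101). The disc count was 4 up and 2 down under library size alone. Dropping sham A, sham B, MI A or MI B left 0, 0, 1 or 3 risen and 3, 2, 9 or 7 fallen genes.

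**Figure D2:**
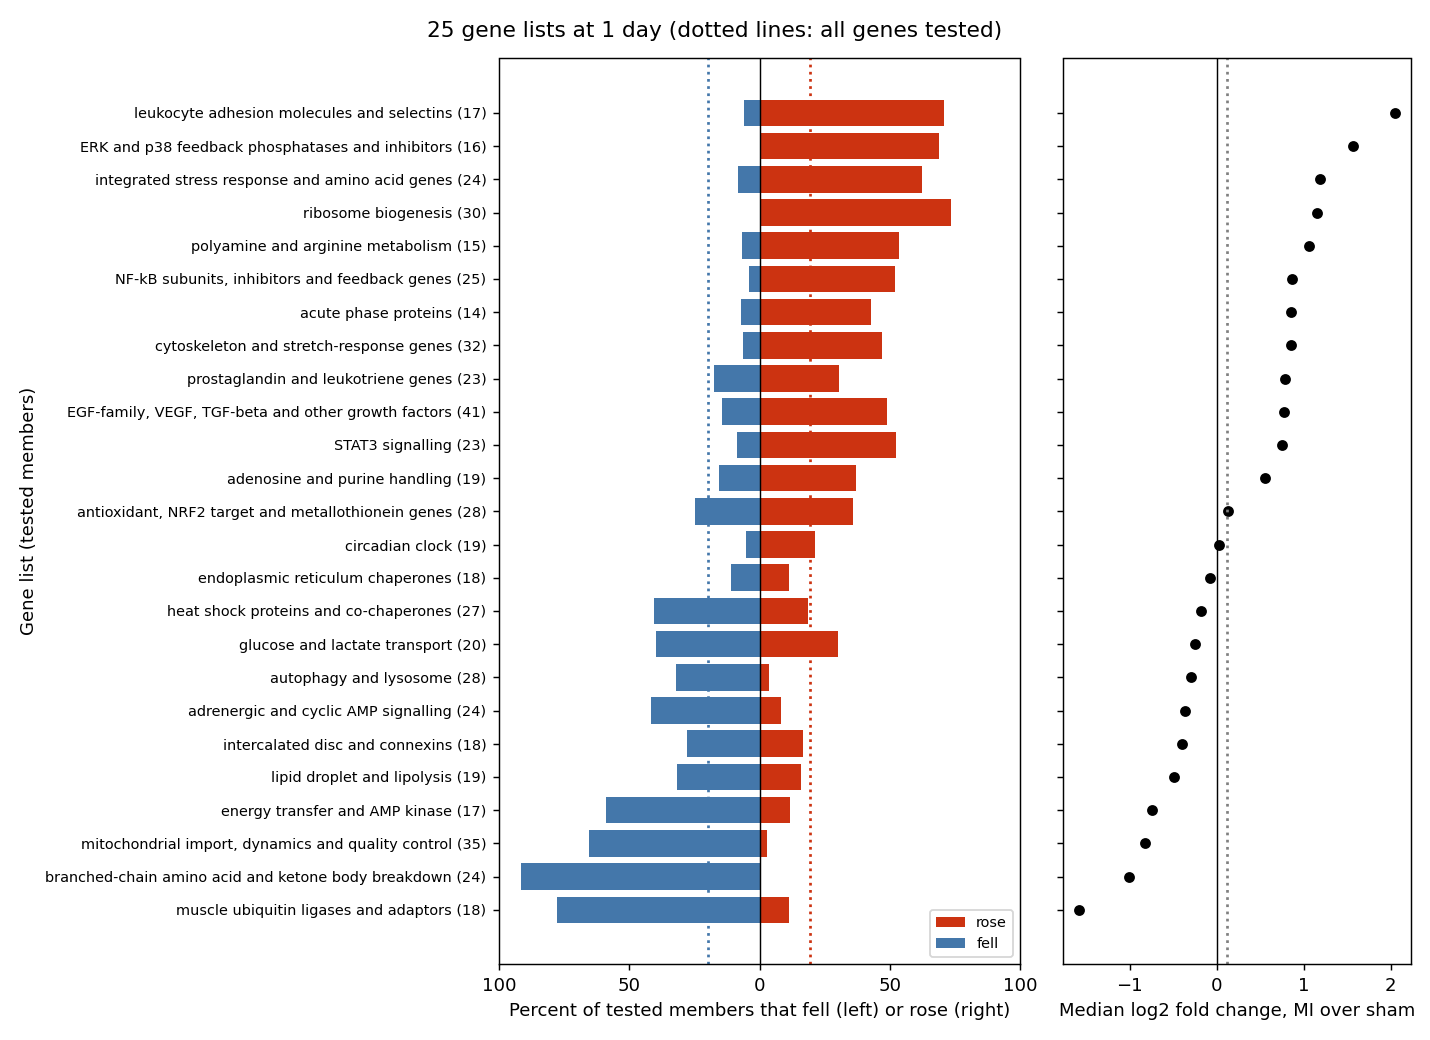
Share of tested members that rose (red, to the right) or fell (blue, to the left) in each of 25 gene lists, with the number tested in brackets, and in the right panel the list's median log2 fold change. Dotted lines give the same over all 15508 genes (19.3% rose, 19.7% fell, median 0.12), and lists run from adhesion molecules (2.05) at the top to muscle ubiquitin ligases (−1.58) at the bottom.

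Beta-1 and alpha-1 receptors raise contraction through cyclic AMP and calcium, and phosphodiesterases end the signal. Of 24 tested adrenergic and cyclic AMP genes, 2 rose and 10 fell. The alpha-1B receptor Adra1b fell from 50.5 and 41.5 CPM in sham libraries A and B to 12.6 and 7.75 CPM in MI libraries A and B (log2 change −2.14, SE 0.28, adjusted p = 0.000538), and Adcy5, a main adenylyl cyclase of the heart, from 127 and 87.3 to 35.7 and 21.9 CPM (log2 change −1.88, SE 0.27, adjusted p = 0.000856). Phosphodiesterases of 1 family went opposite ways: Pde4a fell from 70.8 and 53.4 to 7.06 and 8.36 CPM (log2 change −3.02, SE 0.24, adjusted p = 9.83e-05), and Pde4b, which leukocytes also use, rose from 78.4 and 61.9 to 342 and 233 CPM (log2 change 2.04, SE 0.29, adjusted p = 0.000880). Adrb1, the main beta receptor of cardiomyocytes, went from 11.1 and 12.0 to 6.49 and 3.94 CPM (log2 change −1.10, SE 0.31, adjusted p = 0.0219); it missed the threshold without sham A, sham B or MI B (adjusted p = 0.0797, 0.0987 and 0.0675) and, further, under library size alone (0.0582) and without both B libraries (0.179). Leaving out sham A, sham B, MI A or MI B gave 1, 1, 3 or 4 risen and 5, 9, 12 or 10 fallen genes.

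Muscle ubiquitin ligases and their adaptors had the lowest median of the 25 gene lists, −1.58. These proteins mark sarcomere proteins and signalling enzymes for the proteasome, and several belong to the ASB and KLHL families that are nearly restricted to striated muscle. Of 18 tested, 14 fell and 2 rose. Asb10 was at 126 and 123 CPM in sham hearts and 24.99 and 15.9 CPM in MI hearts (log2 change −2.59, SE 0.23, adjusted p = 0.000124), Asb18 at 20.75 and 15.4 CPM (sham) and 1.46 and 3.08 CPM (MI) (log2 change −3.08, SE 0.38, adjusted p = 0.000456), and Fbxl22, a sarcomeric F-box protein, at 130.4 and 119 CPM (sham) and 30.5 and 16.6 CPM (MI) (log2 change −2.38, SE 0.26, adjusted p = 0.000250). In each of the 3 the MI values lay far below the lower sham value. Klhl41, an adaptor that stabilises thin-filament proteins, rose against the list, from 117 and 117 to 612 and 390.4 CPM (log2 change 2.10, SE 0.22, adjusted p = 0.000232). With sham A, sham B, MI A or MI B left out, the list had 1, 1, 1 or 2 risen and 12, 13, 15 or 14 fallen genes. Of 13 ventricular cardiomyocyte markers 11 fell in the same libraries, and their part in this was not tested.

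Promoters of Klhl41 (chr2:69669870-69670119, plus strand) and Asb18 (chr1:90014667-90014916, minus strand; both RefSeq, GRCm38.p6) are shown because these members of 1 list moved in opposite directions while both hold the MEF2 letters CTA and TAG 4 bases apart, in capitals:
Klhl41 promoter: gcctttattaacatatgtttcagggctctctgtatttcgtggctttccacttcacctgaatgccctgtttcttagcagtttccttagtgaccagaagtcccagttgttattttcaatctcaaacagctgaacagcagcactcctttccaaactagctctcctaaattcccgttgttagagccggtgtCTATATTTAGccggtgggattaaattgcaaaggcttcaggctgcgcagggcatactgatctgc
Asb18 promoter: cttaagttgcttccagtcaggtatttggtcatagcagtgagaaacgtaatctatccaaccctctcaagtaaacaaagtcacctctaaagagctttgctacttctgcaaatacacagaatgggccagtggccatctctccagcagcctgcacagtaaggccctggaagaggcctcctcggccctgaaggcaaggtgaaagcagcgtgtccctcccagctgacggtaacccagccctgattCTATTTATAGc
MEF2 factors drive muscle genes. The letters occurred in 3.69% of all promoters, in 3.84% of the tested genes with a promoter, in 72 of 2208 risen and 106 of 2249 fallen genes with a promoter, and in 5 of 42 genes of the ubiquitin ligase and cytoskeleton lists. Of the other motifs searched, the NF-kB letters GGGA and TTTCC 1 base apart were in 0.411% of promoters and 0.527% of those tested genes. They were in 2 of 21 NF-kB list genes, with 1 of 11 that rose and 0 of 1 that fell. The heat shock letters GAA, TTC and GAA with gaps of 2 bases were in 0.603% of promoters and 0.641% of tested genes. They were in 2 of 21 heat shock genes, with 0 of 4 that rose and 1 of 9 that fell. The estrogen-related receptor letters TCAAGGTCA were in 0.423% of promoters and 0.325% of tested genes. They were in 0 of 65 genes of the amino acid breakdown, mitochondrial and energy transfer lists.

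Of 28 tested genes of autophagy and the lysosome 9 fell and 1 rose. Without sham A, sham B, MI A or MI B the counts were 1, 1, 1 or 1 risen and 2, 6, 13 or 8 fallen genes. Ulk1, the kinase that starts autophagy, fell from 65.3 and 51.6 to 27.6 and 23.7 CPM (log2 change −1.18, SE 0.20, adjusted p = 0.00184), and Hexa, a lysosomal hexosaminidase, from 116 and 118 to 42.8 and 23.7 CPM (log2 change −1.80, SE 0.30, adjusted p = 0.00164). The member that rose was Tfec, a transcription factor of macrophages in the TFEB family, from 0.927 and 1.90 to 16.3 and 18.0 CPM (log2 change 3.59, SE 0.45, adjusted p = 0.000477).

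Of 19 lipid droplet and lipolysis genes, 3 rose and 6 fell. Those that rose were Angptl4, an inhibitor of lipoprotein lipase (25.04 and 20.8 CPM in sham hearts, 612 and 398 CPM in MI hearts, log2 fold change 4.47, SE 0.28, adjusted p = 3.96e-05), Hilpda, an inhibitor of intracellular lipolysis (log2 change 4.05, SE 0.43, adjusted p = 0.000234), and Plin2, the coat protein of lipid droplets, from 134 and 143 to 751 and 682 CPM (log2 change 2.37, SE 0.16, adjusted p = 5.93e-05). Gpam, which starts triglyceride synthesis, fell from 396 and 376 to 136 and 126 CPM (log2 change −1.56, SE 0.17, adjusted p = 0.000240). All 4 passed the test in each fit that left out 1 library. When sham A, sham B, MI A or MI B was dropped, there were 3, 3, 3 or 4 risen and 5, 5, 11 or 6 fallen genes.

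Breakdown of branched-chain amino acids and ketone bodies had the highest share of fallen genes of the 25 lists, 22 of 24, with 0 that rose (median −1.0040). The pathway begins with the transaminase BCAT2 and the branched-chain dehydrogenase, which the phosphatase PPM1K switches on. Ppm1k fell from 255 and 285 CPM in sham libraries A and B to 62.2 and 59.7 CPM in MI libraries A and B (log2 change −2.15, SE 0.18, adjusted p = 0.000116), Bcat2 from 149 and 153 to 64.4 and 37.3 CPM (log2 change −1.55, SE 0.24, adjusted p = 0.00116), and Auh, a later step of leucine breakdown, from 121 and 136 to 52.9 and 35.2 CPM (log2 change −1.53, SE 0.21, adjusted p = 0.000762). Acadsb, an acyl-CoA dehydrogenase of the pathway, stood at −0.40 on the log2 scale and did not pass. Fits that lacked sham A, sham B, MI A or MI B gave 0 risen and 16, 17, 22 or 22 fallen genes.

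Nuclear genes for mitochondrial import, dynamics and quality control fell in 23 of 35 cases and rose in 1 (median −0.82). Mfn1, a mitofusin of the outer membrane, fell from 556 and 576 to 234 and 177 CPM (log2 change −1.46, SE 0.18, adjusted p = 0.000411), Timm50 of the inner-membrane import channel from 79.5 and 72.3 to 35.9 and 20.1 CPM (log2 change −1.42, SE 0.25, adjusted p = 0.00223), and Polrmt, the polymerase that transcribes mitochondrial DNA, from 48.5 and 34.5 to 16.2 and 10.6 CPM (log2 change −1.60, SE 0.27, adjusted p = 0.00193). In the same MI libraries the read share of the mitochondrial genome itself was higher, as given above. In fits without sham A, sham B, MI A or MI B there were 0, 0, 1 or 2 risen and 13, 12, 28 or 24 fallen genes. Of 17 energy transfer genes 10 fell and 2 rose: Ckm, the muscle creatine kinase, went from 2348 and 2096 to 1067 and 726 CPM (log2 change −1.31, SE 0.20, adjusted p = 0.00124), and Ak1, the cytosolic adenylate kinase, from 939 and 850.4 to 300.3 and 185 CPM (log2 change −1.88, SE 0.23, adjusted p = 0.000411). The AMP kinase subunits Prkab2 and Prkaa1 were those that rose, with log2 fold changes of 1.08 (SE 0.20, adjusted p = 0.00266) and 0.84 (SE 0.22, adjusted p = 0.0146), but Prkab2 lost its call without sham A (adjusted p = 0.0692), and Prkaa1 without sham A (0.147) or B (0.0883), both B libraries (0.0895) or with the 1-day libraries alone (0.0513). The fits without sham A, sham B, MI A or MI B had 0, 1, 2 or 2 risen and 8, 9, 12 or 9 fallen genes.

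Members of 1 glucose gene family went opposite ways. Slc2a1, the GLUT1 transporter that most cells use, was at 26.7 and 20.9 CPM in sham hearts and 257 and 106 CPM in MI hearts (log2 change 2.94, SE 0.41, adjusted p = 0.000751), while Slc2a4, the insulin-sensitive GLUT4 of muscle, fell from 572 and 518 to 178 and 97.8 CPM (log2 change −1.98, SE 0.26, adjusted p = 0.000614). Likewise Pfkfb3, an inducible activator of glycolysis, rose from 14.3 and 8.62 to 112 and 66.8 CPM (log2 change 2.97, SE 0.30, adjusted p = 0.000213) and its cardiac relative Pfkfb2 fell from 215 and 254 to 47.5 and 45.8 CPM (log2 change −2.33, SE 0.22, adjusted p = 0.000176). In each pair the sham and MI ranges did not meet. The whole list split into 6 risen and 8 fallen of 20, with a median of −0.25 that was 0.04 under library size alone. Dropping sham A, sham B, MI A or MI B left 5, 6, 5 or 6 risen and 7, 7, 9 or 8 fallen genes, with medians of −0.26, −0.36, −0.41 or −0.09. Among 19 clock genes 4 rose (21.1%, against 19.3% over all genes tested) and 1 fell (5.26%, against 19.7%). The repressor gene Per1 was at 40.2 and 33.9 CPM (sham) and 161 and 71.5 CPM (MI) (log2 change 1.66, SE 0.34, adjusted p = 0.00474), which missed the threshold without sham A (adjusted p = 0.0534) or B (0.0776), while the core gene Arntl stood at −0.62 and Nr1d1 at −0.23. Leaving out sham A, sham B, MI A or MI B gave 0, 2, 4 or 6 risen and 1, 1, 5 or 1 fallen genes.

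Marker lists describe the cell types whose RNA the tissue held. Of 13 ventricular cardiomyocyte markers 11 fell and 0 rose. Ttn, the longest of them, was at 88987 and 70977 CPM in sham libraries A and B and 55779 and 77923 CPM in MI libraries A and B and did not pass (log2 change −0.26, SE 0.34, adjusted p = 0.569), whereas Mybpc3 fell from 6417 and 5415 to 2065 and 1173 CPM (log2 change −1.87, SE 0.26, adjusted p = 0.000748). With sham A, sham B, MI A or MI B left out, the list had 0 risen and 7, 7, 10 or 9 fallen cardiomyocyte markers. All 8 neutrophil markers rose, from 2.76 to 4.80 on the log2 scale, and 7 rose without sham library B. Their summed level was 208 and 149 CPM in the sham and 2136 and 1169 CPM in the MI libraries. Cxcr2, the receptor by which neutrophils follow chemokines, was at 6.09 and 5.40 CPM (sham) and 145 and 99.5 CPM (MI) (log2 change 4.42, SE 0.31, adjusted p = 6.58e-05). Genes of neutrophil primary granules, which are transcribed in bone marrow precursors, stayed low, and none of the 2 tested members was called. Mpo was at 0.290 and 0.115 CPM in sham hearts and 0.0811 and 1.48 CPM in MI hearts. Prtn3 was higher in both MI libraries, at 0.058 and 0.460 CPM (sham) and 1.54 and 0.861 CPM (MI) (log2 change 2.25, SE 1.01, adjusted p = 0.0979).

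Of 8 monocyte and macrophage markers 5 rose and 0 fell. Itgam, the CD11b integrin shared with neutrophils, was at 29.7 and 39.5 CPM (sham) and 446 and 279.6 CPM (MI) (log2 change 3.39, SE 0.31, adjusted p = 0.000152), and Ccr2, the receptor that draws monocytes out of marrow, at 5.62 and 18.6 CPM (sham) and 75.2 and 113 CPM (MI) (log2 change 2.95, SE 0.52, adjusted p = 0.00238). Csf1r, the growth factor receptor of macrophages, was at 108 and 134 CPM (sham) and 71.5 and 73.3 CPM (MI) and did not pass (log2 change −0.74, SE 0.28, adjusted p = 0.0593). In the authors' deposited DESeq2 results Csf1r was called as lower (log2 change −0.77, adjusted p = 0.0309). Lyz2, the lysozyme of macrophages, was at 344 and 440.1 CPM (sham) and 197 and 322 CPM (MI) and did not pass (log2 change −0.60, SE 0.32, adjusted p = 0.169). With DESeq2, without the low-count filter or with the 1-day libraries alone, 1 monocyte and macrophage marker fell. Of 7 resident macrophage markers 2 fell, among them Cbr2, from 42.0 and 59.6 to 11.9 and 14.1 CPM (log2 change −1.97, SE 0.34, adjusted p = 0.00211), and Mrc1 overlapped between the groups (−0.07). F13a1 went the other way, at 171 and 294 CPM (sham) and 424 and 449 CPM (MI). It did not pass (log2 change 0.91, SE 0.36, adjusted p = 0.0688), but did in the transcript table (0.98, edgeR adjusted p = 0.0493). Under library size alone or with DESeq2, 1 resident macrophage marker rose. Without sham A, sham B, MI A or MI B the counts were 4, 3, 4 or 4 risen and 0 fallen monocyte markers. When sham A, sham B, MI A or MI B was dropped, there were 0 risen and 2, 1, 2 or 2 fallen resident macrophage markers. Of 11 T, B and NK cell markers 2 rose (18.2%, against 19.3% over all genes tested). Their highest level was 3.08 CPM, in MI library B. Without MI B, sham A or sham B 0 rose, and without MI A 4. None of the tested epicardial, Schwann cell, mast cell, erythroid or fast skeletal muscle markers was called. Of the 3 adipocyte markers Cidea, a lipid droplet protein, fell (log2 change −1.19, SE 0.21, adjusted p = 0.00247). Of 5 atrial markers 1 fell, and all 5 fell without MI library B, the library in which Myl7 was high.

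Of 27 endothelial markers 9 rose and 3 fell. Apln, the apelin gene of sprouting tip cells, rose from 8.69 and 11.50 to 57.4 and 38.4 CPM (log2 change 2.26, SE 0.34, adjusted p = 0.00103), and Emcn, endomucin, from 38.1 and 44.03 to 89.6 and 109 CPM (log2 change 1.27, SE 0.23, adjusted p = 0.00250). Pecam1, a general marker, stood at 267 and 226 CPM (sham) and 366 and 448 CPM (MI) (log2 change 0.72, SE 0.19, adjusted p = 0.0145), which missed the threshold without sham A (adjusted p = 0.0749) or B (0.186), without both B libraries (0.162) and with the 1-day libraries alone (0.0503). The markers that fell were Kdr, the main VEGF receptor (266.0 and 238 to 174 and 136 CPM, log2 change −0.70, SE 0.18, adjusted p = 0.0149), Aqp7, a glycerol channel (log2 change −0.88, SE 0.21, adjusted p = 0.0099), and Sox18, a transcription factor (log2 change −1.15, SE 0.33, adjusted p = 0.0228). None of the 3 passed without sham A (adjusted p = 0.124, 0.0636 and 0.107). Kdr and Sox18 did not pass without sham B (0.0609 and 0.0978), nor Sox18 without MI B (0.0583). Without both B libraries all 3 missed the threshold (0.0650, 0.0628 and 0.145), as did Kdr and Aqp7 under library size alone (0.0767 and 0.0515). Fits that lacked sham A, sham B, MI A or MI B gave 3, 2, 5 or 12 risen and 0, 1, 7 or 2 fallen endothelial markers. Fibroblast markers fell in 6 of 11 cases and rose in 1. The type I collagen gene Col1a1 fell from 156 and 139 to 22.7 and 25.1 CPM (log2 change −2.63, SE 0.26, adjusted p = 0.000182), and Pdgfra, a surface marker of the lineage, was at 121 and 137 CPM (sham) and 174 and 217 CPM (MI), which did not pass (log2 change 0.60, SE 0.25, adjusted p = 0.0865). In fits without sham A, sham B, MI A or MI B there were 0, 0, 1 or 1 risen and 4, 4, 6 or 4 fallen fibroblast markers. Of 18 smooth muscle and pericyte markers 4 fell and 1 rose. The fits without sham A, sham B, MI A or MI B had 1, 1, 1 or 1 risen and 2, 3, 4 or 7 fallen such markers. Ppbp, a platelet chemokine gene, rose from 8.35 and 7.53 to 42.4 and 53.9 CPM (log2 change 2.59, SE 0.28, adjusted p = 0.000244), the only one of 7 platelet markers called.

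**Figure D3:**
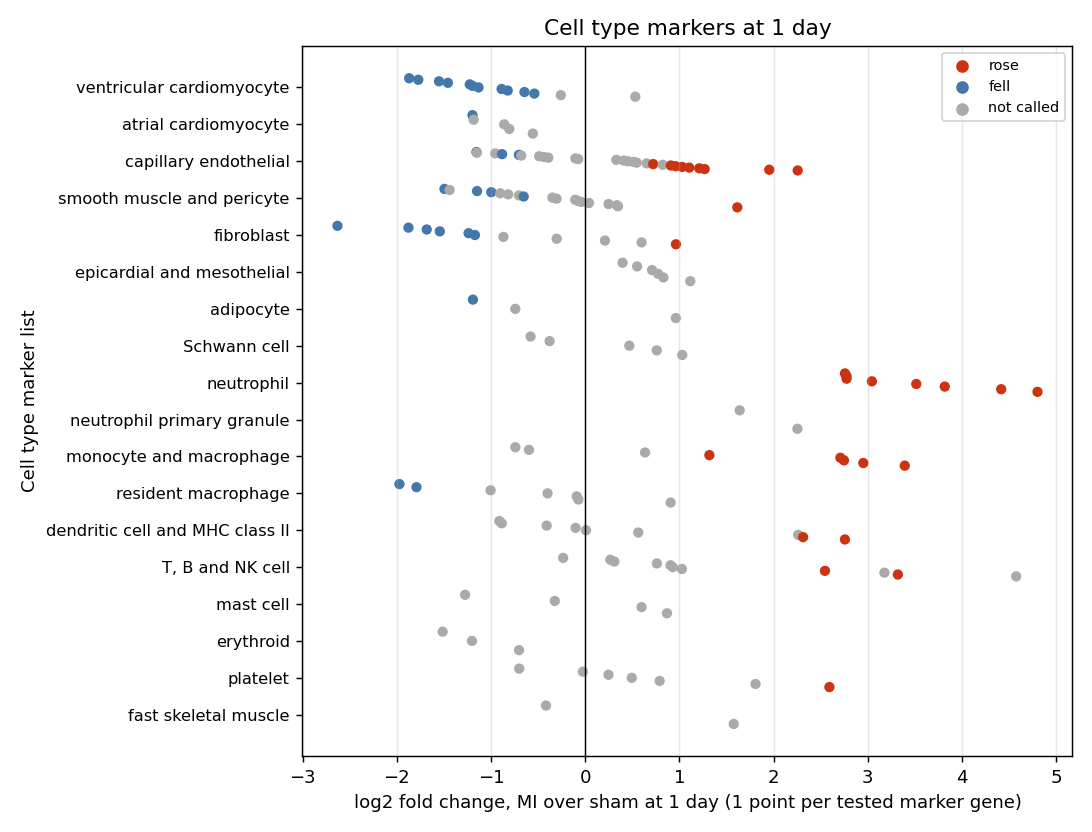
Each point is 1 tested marker gene, placed by its log2 fold change (MI over sham at 1 day) within its cell type list; red rose, blue fell, grey was not called. All neutrophil markers lie between 2.76 and 4.80, and 11 of 13 ventricular cardiomyocyte markers are blue.

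The 1-day transcript expression table is a separate count of the same libraries, so it checks the measurement and not the replication. Summed to genes, it gave 2950 genes that rose (20.2%) and 2790 that fell (19.1%) of 14573 tested. Without sham library A or B, 1192 or 1376 rose and 1501 or 1705 fell there. Of 5517 genes called in the gene counts and tested in both, 5498 (99.66%) had the same sign and 4869 (88.3%) were called the same way, 2322 up and 2547 down. Snhg4, a host of small nucleolar RNAs, was the gene called in opposite directions. The log2 fold changes in the transcript table were 6.13 for Slc7a11, 2.82 for Ankrd1, −2.50 for Asb10 and −2.81 for Ppm1k (gene counts: 6.65, 2.73, −2.59 and −2.15). By the authors' deposited table of DESeq2 results, at an adjusted p of 0.05, 1641 genes were higher and 2104 lower after MI, among 14933 with an adjusted p. In the authors' deposited table all 6051 genes called by edgeR had the same sign, and 3640 of them were also called.

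**Figure D4:**
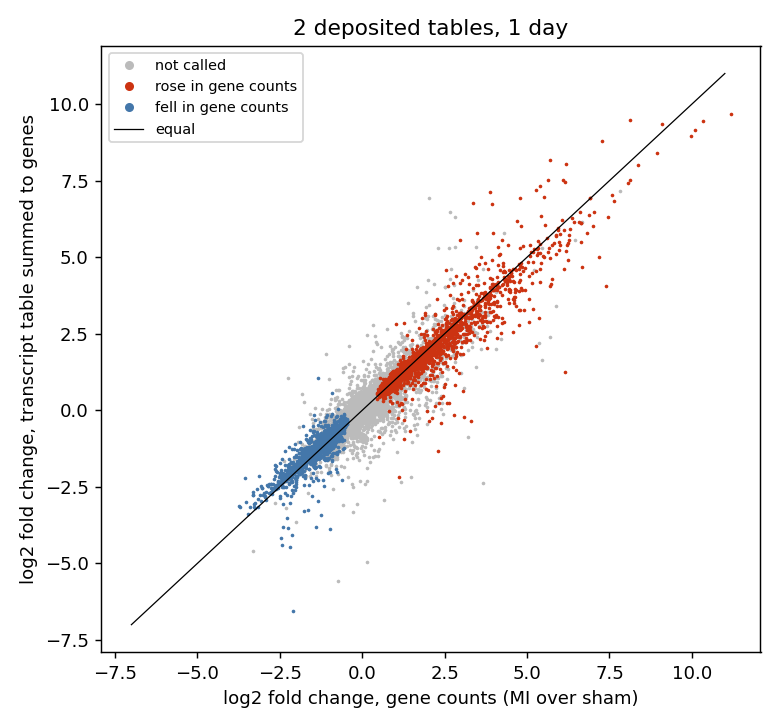
Each point is 1 gene tested in both deposited tables, placed by its log2 fold change (MI over sham) in the gene counts and in the transcript table summed to genes; red rose and blue fell in the gene counts, and the line marks equal values. Points follow the line, and 99.66% of the called genes had the same sign.

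The transcript table also shows which form of a gene was used. Of 7889 genes with at least 2 tested transcripts, 797 (10.1%) had a transcript whose share of the gene's reads differed, by the Simes test of edgeR's diffSpliceDGE at an adjusted p of 0.05. The Simes p belongs to the gene as a whole and not to the transcript it is printed beside. In 299 of them a share moved by at least 20 percentage points, and 132 of these 299 were not called for the level of the gene. The count was 89 without sham library B, 247 without sham library A, 352 without MI library A and 298 without MI library B, and 1414 when the 4 libraries of 1 day were fitted alone. How reads that fit several transcripts were divided is not stated in those sources, so shares of overlapping transcripts rest on that step.

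Pkm encodes pyruvate kinase, whose M1 form is typical of adult muscle and whose M2 form, made by splicing in another exon, is typical of leukocytes and growing cells. The gene's level did not pass (log2 change −0.30, SE 0.19, adjusted p = 0.246), on 20442 and 20208 transcript reads in the sham and 13107 and 6506 in the MI libraries. The M2 transcript (ENSMUST00000034834) held 4.39% and 5.09% in sham libraries A and B and 32.7% and 35.7% in MI libraries A and B (Simes test of edgeR, adjusted p = 1.67e-06). The M1 transcript (ENSMUST00000163694) held 95.6% and 94.9% in sham libraries A and B and 67.3% and 64.3% in MI libraries A and B, and no MI library came near a sham library. Both span chr9:59656368-59679375 (GRCm38). The 155 coding bases between their first and last difference are shown, with the 64 bases that differ in capitals, because they tell the forms apart:
Pkm M1: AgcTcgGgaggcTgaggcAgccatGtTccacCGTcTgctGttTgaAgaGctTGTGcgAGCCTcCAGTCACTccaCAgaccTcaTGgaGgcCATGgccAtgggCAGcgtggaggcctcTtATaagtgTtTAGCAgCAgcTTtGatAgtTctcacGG
Pkm M2: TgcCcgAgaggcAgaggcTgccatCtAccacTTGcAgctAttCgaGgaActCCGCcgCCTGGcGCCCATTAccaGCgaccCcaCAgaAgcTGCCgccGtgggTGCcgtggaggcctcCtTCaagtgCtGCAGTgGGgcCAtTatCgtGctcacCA
Both were read from the GENCODE vM1 transcript sequences. The 155-base stretch is the only part of the coding sequences that differs.

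Dnm1l, the dynamin-related GTPase that divides mitochondria, chosen like Asb2 and Hsph1 below after its values were seen, showed the same kind of change at a level that did not pass (log2 change −0.20, SE 0.18, adjusted p = 0.377). The transcript without an insert (ENSMUST00000023477, 4017 bases) held 75.3% and 74.1% in sham libraries A and B and 40.4% and 40.3% in MI libraries A and B. The transcript with a 39-base insert, 13 codons, near the start of the coding sequence (ENSMUST00000096229, 4056 bases) held 2.39% and 7.72% in sham libraries A and B and 33.8% and 39.3% in MI libraries A and B (Simes test of edgeR, adjusted p = 7.23e-05). The groups did not overlap for either transcript. The insert is shown in capitals with 30 bases on each side:
Dnm1l insert: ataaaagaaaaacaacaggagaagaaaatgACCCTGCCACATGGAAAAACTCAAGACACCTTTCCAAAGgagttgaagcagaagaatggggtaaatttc

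Synpo2l, an actin-binding protein of the Z-disc, had the largest shift among the genes named by rule, with a change of start site. The longer transcript (ENSMUST00000117386, chr14:20659418-20668354, minus strand) held 76.3% and 74.0% in sham libraries A and B and 4.78% and 7.64% in MI libraries A and B. The shorter (ENSMUST00000119483, chr14:20658948-20664574) held 19.7% and 17.7% in sham libraries A and B and 91.6% and 91.4% in MI libraries A and B (Simes test of edgeR, adjusted p = 1.04e-05). The order of the transcripts was thus opposite in the sham and MI libraries, while the gene rose (log2 change 2.12, SE 0.32, adjusted p = 0.00109). RefSeq places a start at the first base of each transcript, and the 250 bases before both starts (GRCm38.p6) are shown so that the promoters can be compared:
Synpo2l upstream promoter, chr14:20668355-20668604: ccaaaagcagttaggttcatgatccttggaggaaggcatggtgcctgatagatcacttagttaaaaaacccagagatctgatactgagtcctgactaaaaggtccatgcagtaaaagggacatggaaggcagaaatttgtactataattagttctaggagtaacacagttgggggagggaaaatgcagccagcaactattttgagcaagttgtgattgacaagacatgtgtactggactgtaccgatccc
Synpo2l downstream promoter, chr14:20664575-20664824: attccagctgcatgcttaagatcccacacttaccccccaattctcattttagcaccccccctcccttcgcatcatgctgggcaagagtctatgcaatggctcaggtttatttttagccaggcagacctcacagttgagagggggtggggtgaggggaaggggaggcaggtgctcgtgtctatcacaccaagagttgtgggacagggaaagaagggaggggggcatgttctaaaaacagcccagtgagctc
Both are on the minus strand, and no motif is marked.

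Fhl1, a LIM protein of the stressed heart, also changed start. Its level rose from 176 and 170.4 to 1797 and 1448 CPM (log2 change 3.23, SE 0.19, adjusted p = 3.49e-05). The transcript that starts downstream (ENSMUST00000114772, chrX:56779723-56793340) held 5.16% and 11.7% in sham libraries A and B and 55.2% and 67.0% in MI libraries A and B, and the upstream one (ENSMUST00000023854, chrX:56731787-56793346) 64.2% and 66.8% in sham libraries A and B and 21.2% and 12.2% in MI libraries A and B (Simes test of edgeR, adjusted p = 2.17e-05). Asb2, whose product is a muscle ubiquitin ligase subunit, fell in level (log2 change −3.47, SE 0.19, adjusted p = 3.49e-05) and changed form: the transcript from the upstream start (ENSMUST00000021617) held 90.4% and 85.9% in sham libraries A and B and 46.2% and 51.6% in MI libraries A and B, and the shorter ENSMUST00000149431 8.39% and 13.5% in sham libraries A and B and 43.0% and 38.2% in MI libraries A and B (Simes test of edgeR, adjusted p = 5.08e-05). MI and sham shares did not overlap for any of these 4 transcripts. In the MI libraries Asb2 had 463 and 283 transcript reads, so its shares rest on far fewer reads than in the sham libraries (7319 and 6597).

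Serpinh1, the collagen chaperone HSP47, had the smallest Simes p of edgeR among the genes with a shift of at least 20 points (adjusted p = 1.35e-09). Its minor transcript ENSMUST00000207849 held 1.38% and 1.96% in sham libraries A and B and 31.7% and 19.3% in MI libraries A and B. Ank1 fell in level (log2 change −1.90, SE 0.22, adjusted p = 0.000311), and its shares differed for the gene as a whole (Simes test of edgeR, adjusted p = 1.05e-05). The short muscle transcript ENSMUST00000121075 (1740 bases), which starts far downstream of the longest, held 81.3% and 82.0% in sham libraries A and B and 67.4% and 52.6% in MI libraries A and B. By diffSpliceDGE's test of each transcript it did not pass (adjusted p = 0.292). ENSMUST00000117296 (6794 bases) did pass that test (adjusted p = 0.0012), with 3.65% and 4.08% in sham libraries A and B and 8.67% and 14.2% in MI libraries A and B. In Vmp1, an autophagy membrane protein, the 931-base transcript ENSMUST00000145846 held 7.77% and 4.09% in sham libraries A and B and 27.9% and 25.3% in MI libraries A and B (Simes test of edgeR, adjusted p = 3.03e-05), which missed the threshold without sham B (edgeR adjusted p = 0.0834). Hsph1, a chaperone of the heat shock list whose level did not pass (0.08), had the transcript ENSMUST00000074846 at 36.5% and 50.3% in sham libraries A and B and 5.38% and 5.50% in MI libraries A and B (Simes test of edgeR, adjusted p = 0.000129). Ifrd2 and Clasp1 were the other genes named by the rule (Simes test of edgeR, adjusted p = 1.87e-06 and 5.08e-06). The share of ENSMUST00000194932 in Ifrd2 was 36.5 points higher after MI. It was 3.61% and 3.82% in sham libraries A and B and 46.8% and 33.7% in MI libraries A and B. Ifrd2 had only 216 and 92 transcript reads in the MI libraries, so its shares there rest on few reads. The share of ENSMUST00000178710 in Clasp1 dropped by 26 points.

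**Figure D5:**
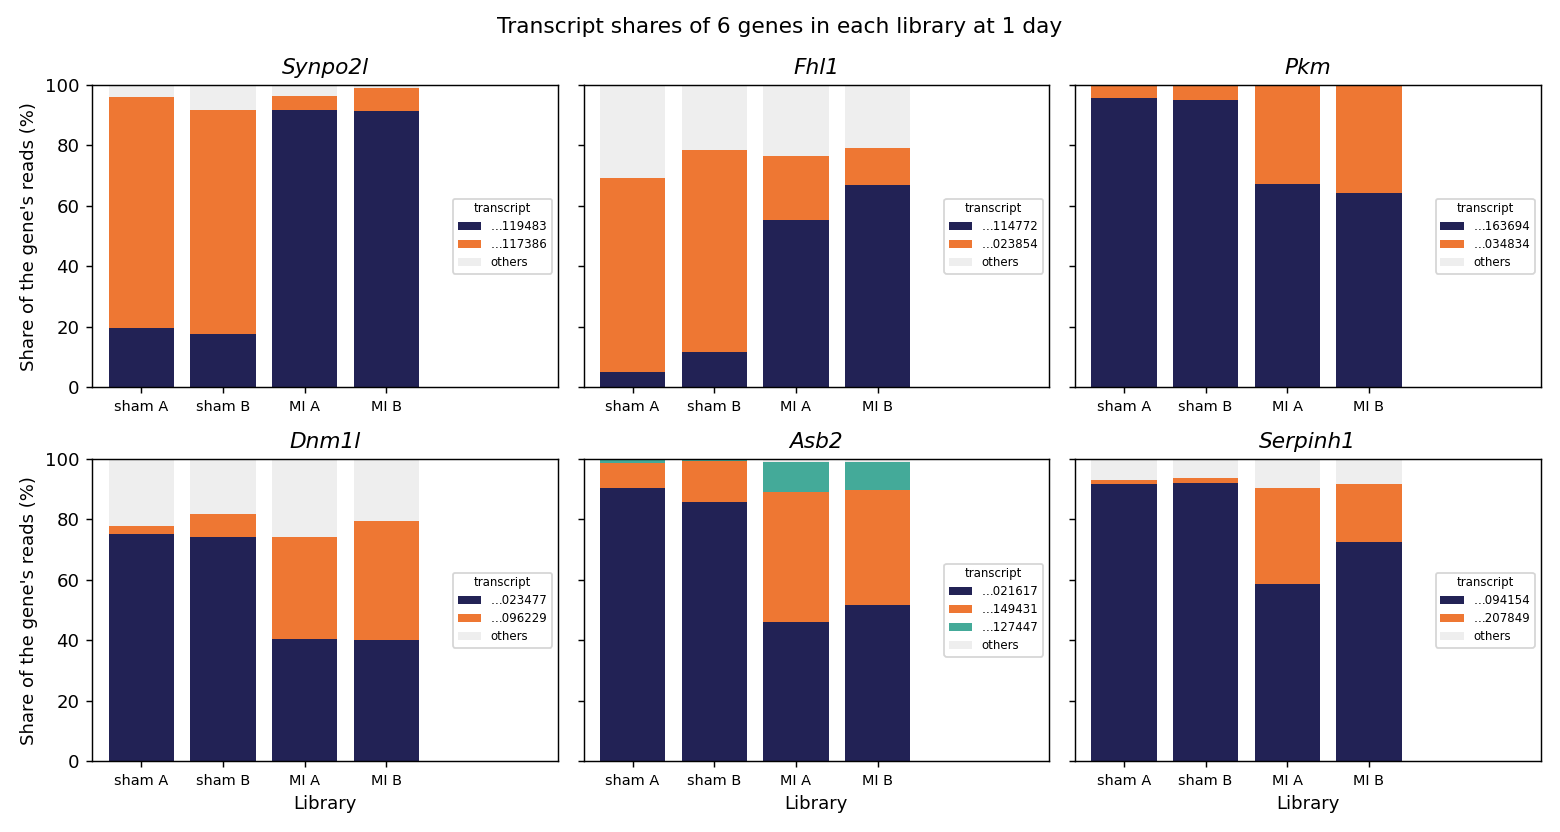
Stacked bars give the share (%) of a gene's transcript-table reads held by each transcript that moved by at least 5 points, in each library, named by the last 6 digits of the Ensembl ID, with the remaining transcripts in pale grey. In Synpo2l the dark transcript goes from 19.7% and 17.7% in the sham to 91.6% and 91.4% in the MI libraries.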

How the data were processed

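The text covers 4 libraries, 2 after MI and 2 after sham surgery, at 1 day. The submitters' processing notes name TopHat2 2.0.14, Bowtie2 2.2.5, mm10, FastQC, HTSeq, SAMtools 0.1.2 and DESeq2, in no order. The annotation, the strand setting and each tool's role were not given in the sources used here. The authors deposited raw read counts per gene and, in a transcript table, counts of total reads per transcript, both whole numbers with no normalization. The authors also deposited DESeq2 log2 fold changes with adjusted p-values and, for transcripts, a signed fold score of the EDGE test with its p-values. Antisense and overlapping genes cannot be told apart without the strand setting.

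Counts were tested with edgeR 4.0.16 (R 4.3.3): TMM scaling, a low-count filter, and the robust quasi-likelihood fit over all 8 libraries in 4 groups, which share 1 estimate of the spread. Adjusted p-values are Benjamini-Hochberg values over all 15508 genes. Transcript shares were tested with diffSpliceDGE and Simes on total reads. Unique reads, planned for this test, could not be tied to libraries. Fits were checked on simulated counts. A gene that did not pass can still have changed. With 2 libraries a group, an exact permutation test could not reach the threshold, so no such test was used.

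The members and lists were chosen with earlier results of these data known. The rule for named genes took the 8 largest changes each way in CPM and in log2 (mean of at least 20 CPM), up to 3 rises and 3 falls per list (mean of at least 5 CPM, groups that do not overlap), a fixed set, and 8 genes by Simes p with a share moved by at least 20 points. Chosen after their values were seen were Acadsb, Arntl, Asb2 (for its transcripts), Csf1r, Dnm1l, F13a1, Hspa5, Hsph1, Il6st, Lyz2, Mpo, Mrc1, Myl4, Nfkb1, Nfkb2, Nr1d1, Pdgfra, Polr1a, Polr1b, Polr1c, Rela, Sln, Snhg4, Sod1, Sod2, Stat3, Ttn and Vegfa.

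Motifs were searched on both strands in RefSeq promoters (250 bases before to 50 after a start, GRCm38.p6), and overlaps between motifs were not removed. Transcript coordinates are those of the deposited table (mm10). Alternatives were other scalings and filters, DESeq2 1.42.0, limma 3.58.1 voom, the 1-day libraries alone, and each library left out. Leaving out both B libraries was added after seeing the data. Results for some genes are not reported here.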

Additional observations from a re-analysis of the deposited data

How the results depend on the processing

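No paired analysis was possible because the columns carry no replicate numbers. The counts of genes that rose ranged from 1017 to 5316 when 1 library was left out and of genes that fell from 1671 to 4072. In the transcript table these ranges were 1192 to 4119 and 1501 to 3686. The genes with a differing transcript share ranged from 89 to 352 when 1 library was left out and numbered 1414 with the 1-day libraries alone; the cause was not tested. Without both B libraries 1964 genes rose, with fewer samples. Under library size alone 2025 genes fell. With DESeq2 size factors, upper quartile scaling, no filter or a stricter one, DESeq2 or limma-voom, the counts of rises (2279 to 3238) and falls (2763 to 3433) were within 1.5 times of those reported, as were 2026 and 2463 with the 1-day libraries alone. A tally over settings was made for 205 genes, without Snhg4, Sod1, Sod2, Stat3, Ttn, Vegfa and some others named above. Over those 205 genes, 2667 values stayed on the same side of the threshold, 189 were no longer past it and 11 newly passed it. No called value of the 205 genes changed sign. Outside that tally, Snhg4 was called in opposite directions in the gene counts and the transcript table. A change of sign between values that both missed the threshold was counted among the 2667. The unique-read alternatives of the share test were not run. Reads limit low genes most: 3 reads are 0.369 CPM in MI library B against 0.172 in sham library B.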
